A study of Mus musculus with 15 samples.

Results

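The enzymes that make polyamines, the antizymes that restrain them and the enzymes that place hypusine on eIF5A were followed through ribosome profiling of mouse embryonic stem cells (mESCs). The set holds 10 genes of the 21727 transcripts counted, 1 transcript each, listed by pathway: *Odc1*, *Amd1*, *Srm* and *Sms* (synthesis), *Sat1* (catabolism), *Oaz1*, *Oaz2* and *Azin1* (the antizyme system), and *Dhps* and *Dohh* (hypusination). The list was chosen by pathway and selected on the measured spread of *Srm* between libraries of total ribosomes, so that *Srm* between those libraries is described here and not tested. All cells were E14Tg2a.4 mESCs, a feeder-free line derived from a male blastocyst of strain 129, kept in serum and leukemia inhibitory factor. In the *Rps27-FLAG* line (clones 2b12, 2c3 and 2c4) and the *Rps27l-FLAG* line (clones 4a2, 4a3 and 4b7) CRISPR placed a 3xFLAG tag before the stop codon of both copies of the gene for 1 of a pair of ribosomal protein paralogs. The wild-type (WT) line (clones 5a1, 5a2 and 5a3) carries no tag. The data are counts of mRNA fragments shielded by ribosomes (ribosome-protected fragments, RPFs), either taken from the whole ribosome pool of a clone (9 total RPF libraries) or from ribosomes pulled down with an antibody against FLAG in the 6 tagged clones (6 IP RPF libraries). The study asked whether ribosomes with either paralog carry different mRNAs, with the WT line as the control for the tag.

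Putrescine, spermidine and spermine are small positively charged molecules that bind nucleic acids and that growing cells need in quantity. Ornithine decarboxylase (*Odc1*) makes putrescine from ornithine, S-adenosylmethionine decarboxylase (*Amd1*) supplies the aminopropyl donor, and spermidine synthase (*Srm*) and spermine synthase (*Sms*) add the aminopropyl groups. Antizymes (*Oaz1*, *Oaz2*) bind ornithine decarboxylase and send it to the proteasome, and their own mRNAs are read through by a programmed +1 ribosomal frameshift that polyamines favour. Antizyme inhibitor (*Azin1*), an inactive relative of ornithine decarboxylase, binds antizyme in its place. Spermidine also feeds translation directly, since deoxyhypusine synthase (*Dhps*) and deoxyhypusine hydroxylase (*Dohh*) use part of it to build hypusine on the translation factor eIF5A.

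The frameshift sites of both antizyme genes are shown because the counts of these genes come from a reading frame that the annotation joins across 1 base left out. The stretch of *Oaz1* lies at chr10:80828281-80828310 and that of *Oaz2* at chr9:65686258-65686287 of GRCm38, both on the + strand within the CDS, and the capitals mark the TCC codon and the TGA stop codon at which the ribosome shifts.
Oaz1: ctcggtggtgcTCCTGAtgtccctcaccca
Oaz2: ctctgtggtgcTCCTGAtgcccctcaccca
In both genes the base left out by the annotation is the T of the TGA, at position 80828295 of chromosome 10 for *Oaz1* and 65686272 of chromosome 9 for *Oaz2*.

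*Oaz1* and *Amd1* were almost without counts. *Amd1* had 0 to 5 counts per library (19 counts in all over 15 libraries, 6 libraries at 0) and *Oaz1* had 0 to 5 (26 counts in all, 2 libraries at 0). The authors kept only fragments that aligned to 1 transcript, and both genes have a near-identical copy among the transcripts. Of the 975 windows of 28 nt in the *Amd1* CDS, 947 (97.1%) occur without a mismatch in *Amd2*, a gene of 1 exon at chr10:35708675-35711892, and of the 654 windows of *Oaz1*, 599 (91.6%) occur in *Oaz1-ps*, a pseudogene at chr17:17345456-17346140. Both copies were listed with 0 counts in every library. *Oaz1-ps*, however, has no CDS in the annotation used here and counts were taken over the CDS. Its 0 therefore does not show whether fragments aligned to it. The 57 nt around the single base that sets the *Amd1* CDS (chr10:40290158-40290214, - strand, exon 7 of 8) apart from that of *Amd2* (chr10:35710736-35710792, - strand) are shown with that base in capitals, since they hold all 28 windows by which an *Amd1* fragment can be told from an *Amd2* fragment.
Amd1: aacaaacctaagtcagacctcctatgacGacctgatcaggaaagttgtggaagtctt
Amd2: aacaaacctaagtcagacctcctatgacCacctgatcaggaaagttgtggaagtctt
Counted from the A of the start codon, the substitution is G796C from *Amd1* to *Amd2*. *Oaz1* differs from *Oaz1-ps* (chr17:17345988-17346044, - strand) by the substitution G125C, shown over the join of exons 1 and 2 of *Oaz1* (chr10:80826856-80828243 with the intron, + strand). The annotated *Oaz1* sequence also lacks the base left out at the frameshift site. The pseudogene keeps that base, and so does the genome at *Oaz1*, so there only the annotated sequence differs.
Oaz1: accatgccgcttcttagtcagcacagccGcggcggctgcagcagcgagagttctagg
Oaz1-ps: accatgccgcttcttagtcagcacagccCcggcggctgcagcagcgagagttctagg
*Sms* shared 347 of 1071 windows (32.4%) with *Gm8234*, which was also listed at 0, and kept 85 to 290 counts per library. The other 7 genes shared no window, and *Oaz2*, the second antizyme, had 32 to 87 counts. The part of shared sequence in the low counts of *Amd1* and *Oaz1* was not tested, and neither gene can be compared between samples here.

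**Figure D1:**
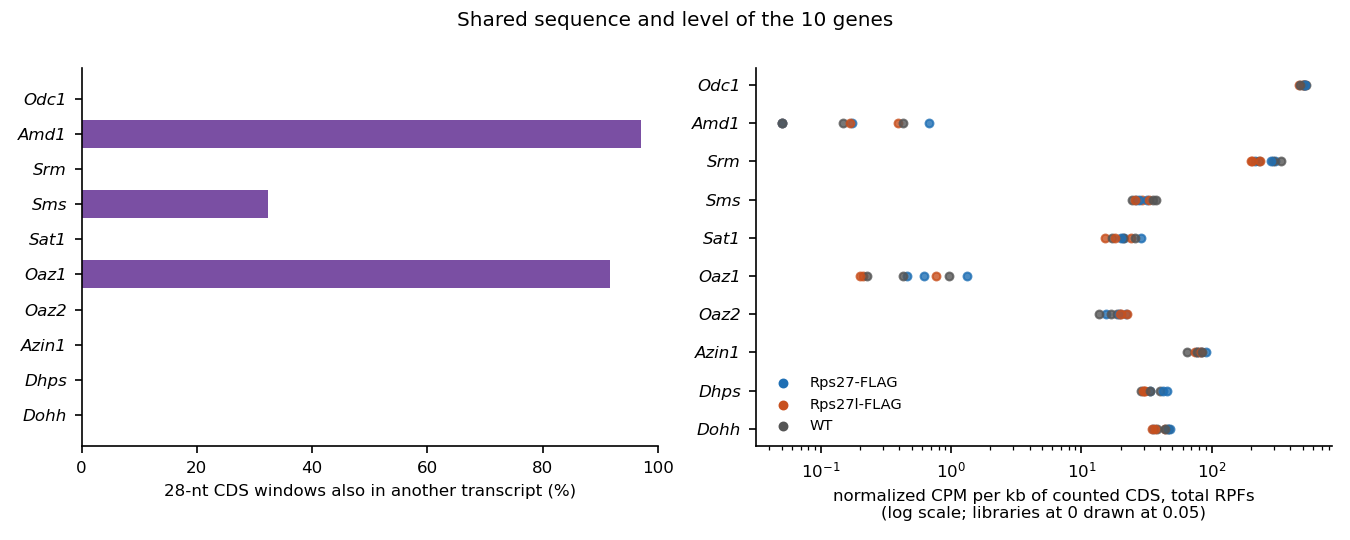
Left, share of the 28-nt windows of each CDS that occur in another counted transcript (percent); right, level in the 9 total RPF libraries in normalized CPM per kb of counted CDS on a log scale, with libraries at 0 drawn at 0.05 and colours for the 3 lines. *Amd1* (97.1%) and *Oaz1* (91.6%) are the genes with most windows shared and lie below every other gene in level.

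The 15 libraries held between 3972152 and 8064166 counts, the IP RPF libraries 3972152 to 6673935 and the total RPF libraries 6313827 to 8064166. All 9 mESC markers (among them *Pou5f1*, *Nanog* and *Zfp42*) were present in every library, at 78.1 to 1146 normalized CPM (CPM, counts divided by the library size, here scaled, and set to a common total), while the 6 fibroblast markers summed to 8.98 to 33.4. Of these *Dcn*, *Lum* and *Postn* stayed under 1, and *Thy1* reached 24.1, *Col1a1* 8.23 and *Col1a2* 1.95. The first principal component of the total RPFs, with 51.8% of their variance, set clones 2b12, 4a2, 4a3 and 5a1 apart from the other 5, and the same 4 clones had 1.95 to 3.08 normalized CPM of *Tet1* (a 5-methylcytosine oxidase) against 417 to 431 in the others. The tested transcripts were the 10085 with CPM over 2 in at least 14 libraries, among them 8 of the 10 genes, all but *Amd1* and *Oaz1*. RPF counts from a culture do not separate mRNA amount from ribosomes per mRNA, nor a change in each cell from a change in the share of cells.

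*Odc1* (chr12:17544794-17551084, + strand, 12 exons) had the most RPFs per length of the tested genes of the set. *Amd1* and *Oaz1*, almost without counts and with most of their windows shared, were left out of this order. Over the 9 total RPF libraries its level per kb of counted CDS was 505 ± 20.0 normalized CPM per kb (SD, n = 9), above *Srm* at 257 ± 50.5 and *Azin1* (chr15:38487427-38519266, - strand, 12 exons) at 79.4 ± 7.34. The ranges of these 3 genes overlapped neither each other nor any gene further down. The hypusination enzymes and spermine synthase followed, *Dohh* at 41.5 ± 5.12, *Dhps* at 34.9 ± 6.03 and *Sms* at 30.1 ± 4.58 normalized CPM per kb (SD, n = 9). *Dohh* lies at chr10:81384428-81388352 (+ strand, 5 exons), *Dhps* at chr8:85071757-85075162 (+ strand, 9 exons) and *Sms* at chrX:157443855-157492287 (- strand, 11 exons). Each of these overlapped the next in the order, as did *Sat1* (21.2 ± 4.24, chrX:155213132-155216449, - strand) and *Oaz2* (18.7 ± 2.92, chr9:65676548-65690300, + strand). The level of *Sms* was divided by its full counted CDS, although 32.4% of its windows are shared with *Gm8234* and only unique alignments were kept. Its place in this order is therefore uncertain. The substrate of the hypusination enzymes, *Eif5a*, stood at 1680 ± 98.2 normalized CPM per kb, more than any tested gene of the set, and its paralog *Eif5a2* at 17.3 ± 2.75.

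*Odc1* was also the steadiest of the tested genes of the set. Its normalized CPM in total RPFs were 678, 678 and 686 in *Rps27-FLAG* (replicates 1 to 3), 684, 668 and 619 in *Rps27l-FLAG* and 700, 666 and 629 in WT. The 3 lines overlapped, and the coefficient of variation over the 9 libraries was 3.97%, against a median of 8.63% for the 6507 tested transcripts with a mean of at least 20 normalized CPM. *Azin1* varied by 9.25%, *Dohh* by 12.3%, *Sms* by 15.2%, *Oaz2* by 15.6%, *Dhps* by 17.3%, *Srm* by 19.7% and *Sat1* by 20.0%. Counting error alone gives 12.1% for *Sat1* and 12.1% for *Oaz2*, which had the fewest counts, but 2.55% for *Srm*.

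**Figure D2:**
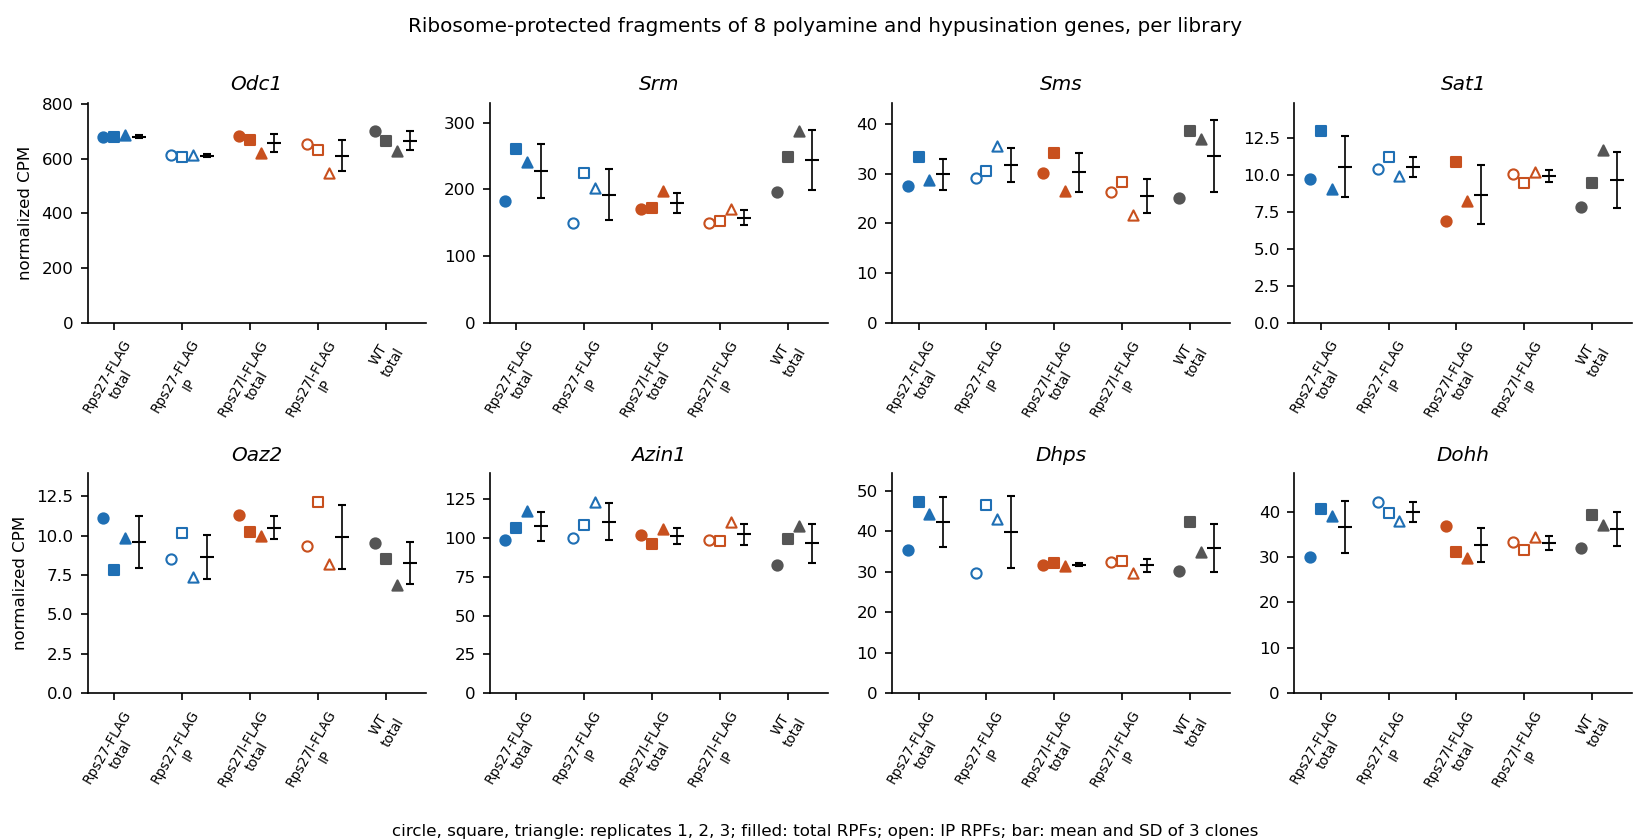
Normalized CPM of the 8 tested genes in each library (linear axes from 0); filled symbols are total RPFs, open symbols IP RPFs, symbol shapes are replicates, and bars give the mean and SD of 3 clones. *Odc1* stays between 619 and 700 in total RPFs, *Srm* spreads from 170 to 287, and both lie lower in the IP than in the total RPFs of each clone.

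*Srm* lies at chr4:148591503-148594619 of GRCm38 (+ strand, 7 exons, CDS of 906 nt without the stop codon). It had 182, 260 and 241 normalized CPM in the total RPFs of *Rps27-FLAG* (replicates 1 to 3), 170, 172 and 198 in *Rps27l-FLAG*, and 197, 249 and 287 in WT. The highest library was 1.69 times the lowest. The lowest libraries were of *Rps27l-FLAG* (170 and 172), followed by *Rps27-FLAG* (182), WT (197) and *Rps27l-FLAG* (198). The line means were 228 ± 40.7 in *Rps27-FLAG*, 180 ± 15.4 in *Rps27l-FLAG* and 244 ± 45.3 in WT (SD, n = 3). The *Rps27l-FLAG* libraries overlapped both other lines. Its coefficient of variation stood at percentile 92.4 of the transcripts with at least 20 normalized CPM. These values chose the gene and carry no test.

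The clones with the lowest *Srm* were those with little *Tet1*, but the 2 sets of clones nearly met. In clones 4a2, 4a3, 2b12 and 5a1 *Srm* lay between 170.3 and 196.8 normalized CPM, and in the 5 clones with *Tet1* it lay between 197.6 and 287.0. The gap between 5a1 and 4b7 was smaller than the counting error of *Srm* (2.55%). *Rps27l-FLAG* has 2 of its 3 clones in the first set and the other lines have 1 each. All 3 clones of sequencing batch L1 (replicate 1) are in the first set, with 1 of 3 in L2 (4a3) and 0 of 3 in L3. Clones of both sets therefore share a batch only in L2, where 4a3 had 172 normalized CPM of *Srm* and the other clones 260 and 249. There 4a3 is also the only *Rps27l-FLAG* clone, so the clone split cannot be told apart from the line. Within each of the 3 batches the *Rps27l-FLAG* clone had the lowest *Srm*.

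Some cell type markers moved with the same split. In the 4 clones with little *Tet1* the fibroblast markers summed to 23.3 to 30.8 normalized CPM, against 10.7 to 16.7 in the other 5. Of the 6 genes, *Thy1* (16.7 to 22.3 against 5.76 to 13.0) and *Col1a1* (5.18 to 8.17 against 1.20 to 4.12) did not overlap. *Col1a2* overlapped, and *Dcn*, *Lum* and *Postn* were under 1 in both. The 9 differentiation markers did not move together. *Pax6* was lower (0.781 to 1.92 against 11.4 to 19.6), while *Sox17* and *Sox7* were higher without overlap. Their sum was lower (12.8 to 21.1 against 21.7 to 26.4) through *Pax6* and not through the list as a whole. The sums of the 9 mESC markers overlapped (4212 to 4545 against 3980 to 4338). Of these genes *Klf4* (169 to 229 against 112 to 156), *Sox2* and *Utf1* were higher without overlap. Their part in the level of *Srm* was not tested.

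The difference of mean log2 *Srm* between *Rps27l-FLAG* and WT was -0.43 over all clones, -0.43 within the clones with *Tet1* and -0.20 within those with little, where each line is left with 1 or 2 clones. Against *Rps27-FLAG* it was -0.33 over all clones, -0.34 with *Tet1* and -0.09 with little. The part of the clone split in these differences was not tested. These splits were made after the data were seen and have no test.

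The Myc family, transcription factors known to drive polyamine synthesis genes, ran in opposite directions over the same clones. *Mycn* had 161, 240 and 231 normalized CPM in *Rps27-FLAG* (replicates 1 to 3), 103, 195 and 170 in *Rps27l-FLAG* and 148, 266 and 259 in WT. *Myc* had 160, 102 and 107, then 221, 164 and 122, then 214, 118 and 111 in the same order. *Myc* was at 160 to 221 in the 4 clones with low *Tet1* and at 102 to 122 in the others, without overlap, whereas *Mycn* (103 to 195 and 170 to 266) overlapped. *Oat*, the aminotransferase that draws ornithine away from *Odc1*, did not overlap either. It had 157 to 161 normalized CPM in the 4 clones and 84.7 to 103 in the other 5. *Eif5a* lay just apart in the other direction, at 622 to 663 and 664 to 745. *Odc1* overlapped between the sets (668 to 700 and 619 to 686), as did *Sms*, *Sat1*, *Oaz2*, *Azin1*, *Dhps* and *Dohh*. The share of all tested transcripts without overlap in this split was not counted. Neither *Srm*, nor these genes, nor the markers above can therefore be called particular to it.

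Across the 9 total RPF libraries the transcripts most like *Srm* among 6506 compared were *Fastkd5* (Pearson's r of the log2 levels 0.976), *E2f8* (0.975), *Mthfd1l* (0.973), *Tmem69* (0.972) and *Ftsj3* (0.969). The least alike were *Rap1a* (-0.974), *Rec8* (-0.972) and *Itga3* (-0.970). Of the genes of the set among those compared, *Dohh* (0.70) and *Dhps* (0.68) were closest to *Srm* by the same measure, and *Odc1* was at -0.28. *Mycn* had an r of 0.83, *Myc* -0.81 and *Tet1* 0.85. The 9 points share the split into 4 and 5 clones, so these values are descriptions.

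**Figure D3:**
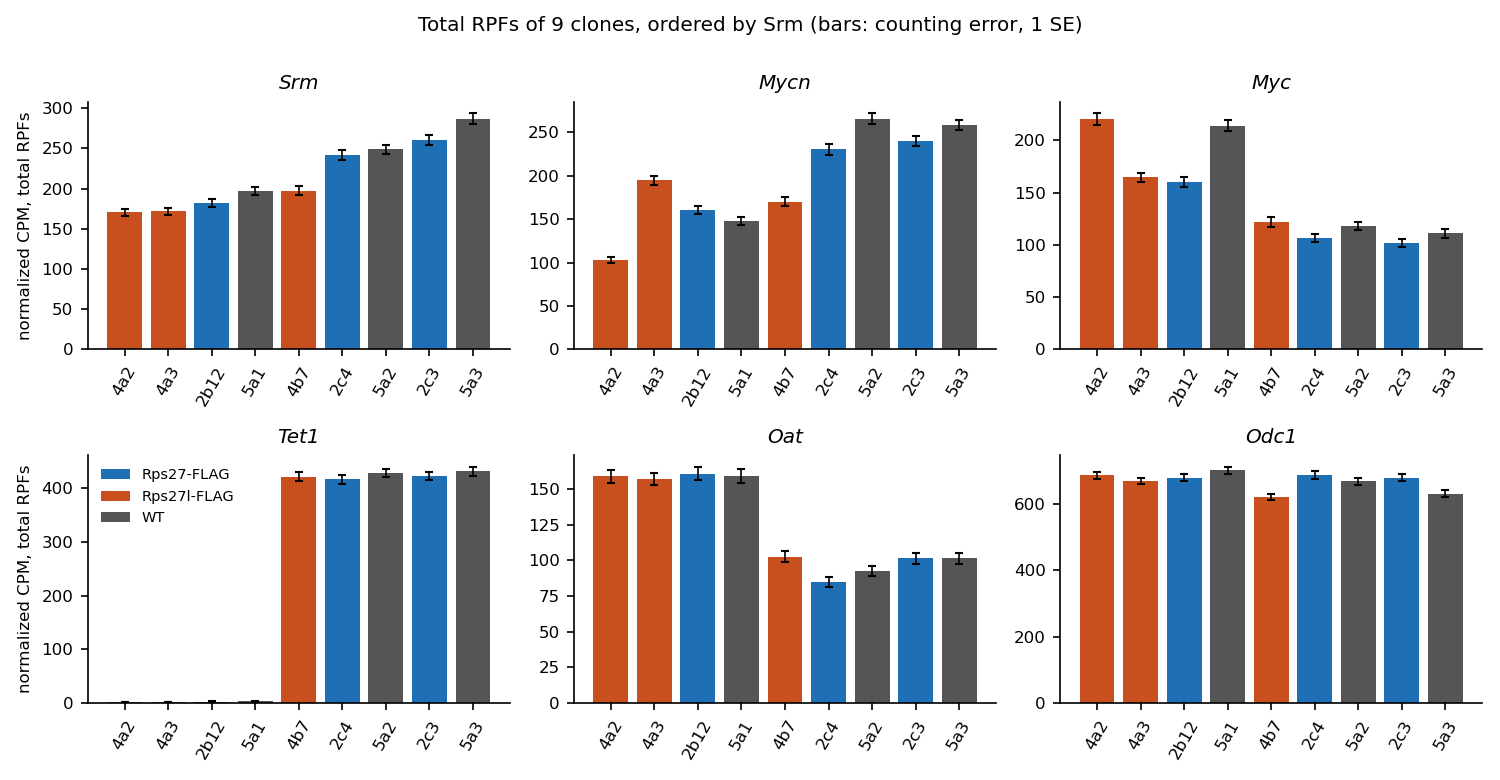
Normalized CPM of *Srm*, *Mycn*, *Myc*, *Tet1*, *Oat* and *Odc1* in the total RPFs of the 9 clones, ordered by *Srm* and coloured by line, with counting error (1 SE). *Myc* and *Oat* are higher and *Tet1* is near 0 in the 4 clones with least *Srm*, while *Odc1* is level.

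Between lines, none of the 7 other tested genes passed an adjusted p of 0.05 in total RPFs. Neither did any of the 10085 transcripts (0% in each of the 3 comparisons by edgeR's quasi-likelihood test, with 294, 574 and 580 at an unadjusted p under 0.05 for *Rps27-FLAG* against WT, *Rps27l-FLAG* against WT and *Rps27l-FLAG* against *Rps27-FLAG*). With the replicate number as a block, which the study's sample list also gives as the sequencing batch, 1 transcript (0.00992%), 144 transcripts (1.43%) and 137 transcripts (1.36%) passed, and again none of the 7. *Odc1* differed by 0.03, -0.02 and -0.05 in the 3 comparisons, and the 95% intervals lay within -0.16 and 0.14 on the log2 scale.

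*Dhps*, which performs the first step of hypusination, had 31.6, 32.1 and 31.3 normalized CPM in *Rps27l-FLAG* (replicates 1 to 3) against 35.4, 47.2 and 44.3 in *Rps27-FLAG* and 30.2, 42.1 and 35.0 in WT. The *Rps27l-FLAG* libraries lay below all *Rps27-FLAG* libraries and inside the range of WT. The log2 fold change between the tagged lines was -0.41 (standard error 0.14), with an adjusted p of 0.803 by edgeR and 0.0891 with the block. *Oaz2* was the other gene without overlap in a comparison, at 11.3, 10.2 and 9.96 normalized CPM in *Rps27l-FLAG* and 9.52, 8.51 and 6.87 in WT (log2 fold change 0.34, standard error 0.18, adjusted p = 0.821 by edgeR). Thus 0, 1 and 1 of the 7 genes did not overlap in the 3 comparisons, against 8.52%, 9.65% and 11.5% of all tested transcripts.

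The FLAG pulldown asks which mRNAs the tagged ribosomes carry. In all 6 tagged clones *Srm* and *Odc1* gave a smaller share of the IP RPFs than of the total RPFs of the same clone. *Srm* had 150, 224 and 203 normalized CPM in the IP RPFs of *Rps27-FLAG* (replicates 1 to 3) and 150, 153 and 170 in those of *Rps27l-FLAG*. The log2 ratio of IP to total RPFs in the single clones was -0.28, -0.22 and -0.25 in *Rps27-FLAG* and -0.19, -0.17 and -0.22 in *Rps27l-FLAG*, each with a counting error of 0.053 to 0.069. The spread between clones of total RPFs was thus repeated in the IP RPFs, with IP levels of 0.822 to 0.890 times the total level of the same clone.

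*Odc1* had 614, 605 and 613 normalized CPM in the IP RPFs of *Rps27-FLAG* and 654, 632 and 548 in those of *Rps27l-FLAG* (replicates 1 to 3). Its log2 ratios were -0.14, -0.17 and -0.16 and then -0.07, -0.08 and -0.18, with a counting error of 0.030 to 0.039. In *Rps27-FLAG* every IP library lay below every total library, and in *Rps27l-FLAG* they overlapped. For *Srm* it was the other way round, with overlap in *Rps27-FLAG*, while for *Rps27l-FLAG* the highest IP library (169.9) lay just below the lowest total library (170.3). So 1 of 8 genes did not overlap in each line, against 28.3% and 23.3% of all tested transcripts.

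In the comparison of 3 IP with 3 total libraries that leaves the clones unpaired, none of the 8 genes passed the threshold in either line, and 5.67% and 3.1% of all tested transcripts did in *Rps27-FLAG* and *Rps27l-FLAG* (edgeR). In *Rps27-FLAG* the unpaired log2 fold changes were -0.16 for *Odc1* (adjusted p = 0.119, standard error 0.050) and -0.25 for *Srm* (adjusted p = 0.445, standard error 0.17). Each IP library, however, shares its clone with 1 total library. With the clone as a block, *Srm* was lower in the IP of both lines, with log2 fold changes of -0.25 ± 0.035 in *Rps27-FLAG* (standard error, adjusted p = 1.44e-11, edgeR) and -0.19 ± 0.038 in *Rps27l-FLAG* (adjusted p = 4.74e-05). So was *Odc1*, at -0.16 ± 0.030 (adjusted p = 1.48e-06) and -0.10 ± 0.028 (adjusted p = 0.00334). The block called 41.2% and 31.0% of all tested transcripts, 22.9% and 19.0% as lower, and of the 8 genes 2 and 3 as lower and none as higher. Without replicate 1 of *Rps27-FLAG* the unpaired comparison called 1809 transcripts, among them *Odc1* (-0.17, adjusted p = 0.0212) and *Srm* (-0.24, adjusted p = 0.0182).

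The ratio of IP to total RPFs varied with CDS length (1383 nt for *Odc1*, 906 nt for *Srm*). Among the 3990 tested transcripts whose CDS is 513 to 1383 nt long, the range of the 8 genes, the median log2 fold change was 0.071 in *Rps27-FLAG* and 0.038 in *Rps27l-FLAG*, against -0.052 and -0.044 over the 8 genes and -0.010 and -0.031 over all tested transcripts. IP below total in 6 of 6 clones was found for 22.6% of all tested transcripts and 8.95% of those in this length range, and for 2 of the 8 genes. With the length trend removed from each library and the clone as a block, the *Srm* log2 fold changes were -0.35 and -0.26 and those of *Odc1* -0.17 and -0.11 (adjusted p from 2.81e-22 to 0.00316, edgeR). The share of all tested transcripts called in that fit is not given here.

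**Figure D4:**
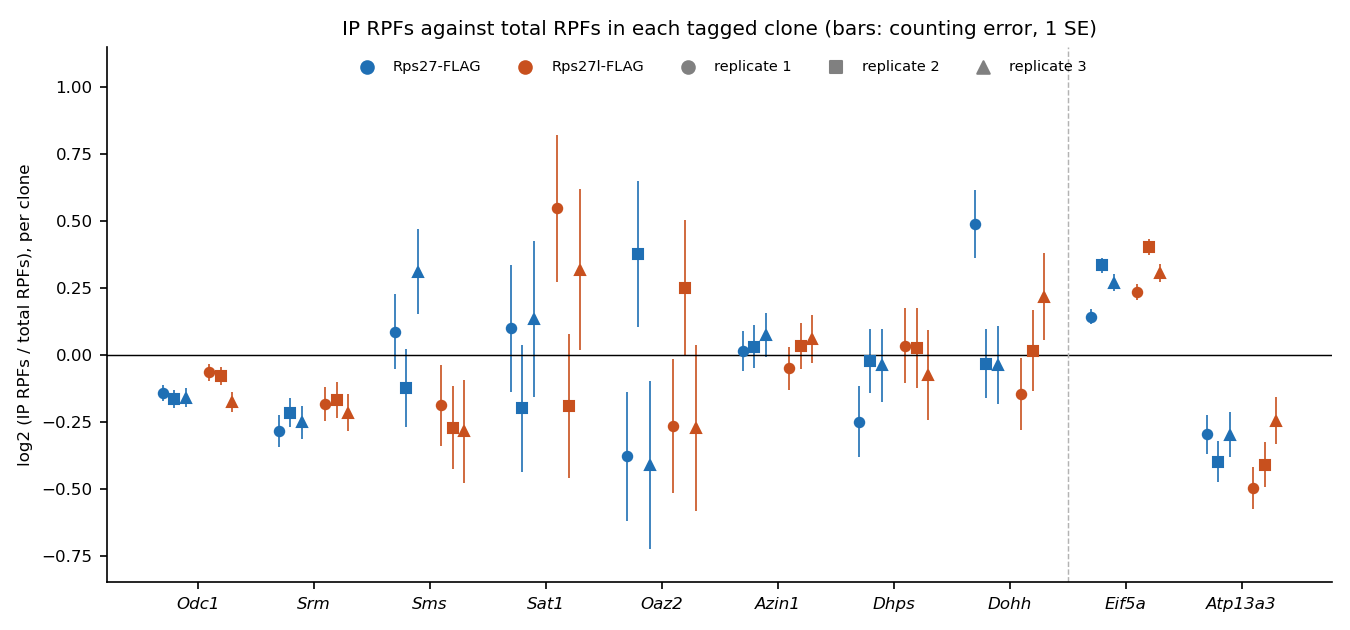
log2 ratio of IP to total RPFs in each tagged clone for the 8 tested genes and, right of the dashed line, *Eif5a* and *Atp13a3*; bars are counting error (1 SE), colours are lines and shapes replicates. All 6 clones lie below 0 for *Odc1*, *Srm* and *Atp13a3* and above 0 for *Eif5a*. *Sms*, *Sat1*, *Oaz2*, *Azin1*, *Dhps* and *Dohh* fall on both sides.

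*Sms*, which follows *Srm* in the pathway, had log2 IP to total ratios of 0.09, -0.12 and 0.31 in *Rps27-FLAG* and -0.19, -0.27 and -0.29 in *Rps27l-FLAG*, with a counting error of 0.141 to 0.192. The first line fell on both sides of 0 and the second lay below 0 in each clone. In *Rps27l-FLAG* the log2 fold change was -0.25 (standard error 0.14, adjusted p = 0.442) and with the clone as a block -0.25 (standard error 0.091, adjusted p = 0.0322, edgeR). In *Rps27-FLAG* the value with the block was 0.08 (standard error 0.086, adjusted p = 0.502).

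*Azin1*, a relative of *Odc1* by sequence with a CDS of similar length (1344 nt), did not share its lower level in the IP. Its log2 ratios lay between -0.05 and 0.07 in the 6 clones, and with the block its log2 fold changes were 0.04 (95% interval -0.05 to 0.13) and 0.01 (-0.08 to 0.10). The second hypusination enzyme, *Dohh*, was between -0.15 and 0.22 in 5 clones and at 0.49 in clone 2b12, where the IP RPF library held 292 counts and the total RPF library 235. *Dhps* lay between -0.25 and 0.03.

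*Oaz2* and *Sat1*, the least abundant of the tested genes, scattered most. The *Oaz2* ratios were -0.38, 0.38 and -0.41 in *Rps27-FLAG* and -0.27, 0.25 and -0.27 in *Rps27l-FLAG*, so that replicate 2 lay above 0 and replicates 1 and 3 below it in both lines. Counting error was 0.242 to 0.314. *Sat1*, which acetylates spermidine and spermine for export or oxidation, ran from -0.20 to 0.55 with a counting error of 0.236 to 0.302. Neither passed the threshold in any comparison, with or without the block.

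Whether the pulldown acts differently on these mRNAs in the 2 tagged lines was tested in 1 fit of the 12 libraries with the clone as a block. None of the 8 genes passed, and 1.5% of all tested transcripts did. The difference, *Rps27l-FLAG* minus *Rps27-FLAG*, was 0.06 for *Srm* (95% interval -0.04 to 0.16) and 0.05 for *Odc1* (-0.02 to 0.13). The largest was that of *Sms*, -0.32 (-0.57 to -0.07), with an adjusted p of 0.228 by edgeR. The difference of *Sat1* was 0.21 (-0.22 to 0.64), an interval too wide to place it.

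The wider pathway was read from a list of 27 genes for ornithine, methionine and methylthioadenosine metabolism, polyamine oxidation and transport, eIF5A and the Myc family, of which 21 were tested. None passed between lines in total RPFs. With the batch as a block *Mycn* was lower in *Rps27l-FLAG* than in WT (log2 fold change -0.53, adjusted p = 0.00358) and than in *Rps27-FLAG* (-0.46, adjusted p = 0.00780), and *Myc* was higher than in *Rps27-FLAG* (0.46, adjusted p = 0.0309, edgeR). *Myc* did not overlap between the clones with and without much *Tet1*, whereas *Mycn* did and was lower in *Rps27l-FLAG* (170) than in the other clones with *Tet1* (231 to 266) as well. The part of that split in these differences was not tested.

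In the IP RPFs 1 of the 21 genes was lower and none higher in *Rps27-FLAG*, and 1 was lower and 1 higher in *Rps27l-FLAG*. Of all tested transcripts 5.34% were lower and 0.327% higher in *Rps27-FLAG*, and 2.27% and 0.833% in *Rps27l-FLAG*. The lower gene in both was *Atp13a3*, a polyamine transporter of the P5B family with a long CDS (3747 nt). It had 100, 101 and 106 normalized CPM in the IP RPFs of *Rps27-FLAG* against 123, 133 and 131 in total RPFs, and 88.8, 92.7 and 102 against 125, 123 and 121 in *Rps27l-FLAG* (replicates 1 to 3). All IP libraries lay below all total libraries, with log2 fold changes of -0.33 (standard error 0.062, adjusted p = 0.0212) and -0.38 (standard error 0.075, adjusted p = 0.0332, edgeR).

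The higher gene was *Eif5a*, with a CDS of 462 nt. It had 755, 853 and 850 normalized CPM in the IP RPFs of *Rps27l-FLAG* against 641, 645.5 and 688 in total RPFs (log2 fold change 0.32, standard error 0.060, adjusted p = 0.0313). In *Rps27-FLAG* it had 687, 870 and 898 against 622, 690 and 745 (0.25, standard error 0.11, adjusted p = 0.230 and, with the clone as a block, 2.20e-15, edgeR). IP above total in 6 of 6 clones held for 5 of the 21 genes, among them *Eif5a*, and for none of the 8, against 16.4% of all tested transcripts and 22.5% of those between 513 and 1383 nt. With the block *Rps27-FLAG* had 4 of the 21 genes higher and 2 lower in the IP, and *Rps27l-FLAG* had 2 of each. The shares of all tested transcripts were 18.3% higher and 22.9% lower, and 12% higher and 19.0% lower, so that the counts of the list stood near or below the background. Beside *Eif5a* and *Atp13a3* these were, in *Rps27-FLAG*, the methylthioadenosine phosphorylase gene *Mtap* (0.16), *Mycn* (0.13), *Slc3a2* (0.14), which encodes the heavy chain of amino acid transporters, and *Oat* (-0.11). In *Rps27l-FLAG* they were *Slc3a2* (0.10) and the polyamine oxidase gene *Paox* (-0.21). *Eif5a2* had log2 fold changes of 0.29 (standard error 0.22) and 0.15 (standard error 0.19), at 31 counts in its shallowest library, and passed in neither. *Amd2* was listed at 0 throughout.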

How the data were processed

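Per the labels and the study's methods, the authors trimmed reads with cutadapt 2.4, extracted molecular identifiers and removed duplicates with UMI-tools 1.0.1, discarded rRNA, tRNA and snRNA reads, aligned the rest with Bowtie2 2.3.4.3 to canonical GENCODE transcripts of GRCm38, and kept unique alignments. The deposited values are the authors' raw counts of ribosomal A sites per CDS, without its first 15 and last 5 codons. All 15 columns were used. Transcripts were named through GENCODE M21, which is not the release the authors used (4 of 21727 had no entry). Clones, fractions and replicates came from the labels, and the batch from the study's supplement.

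After removal of 13 transcripts of the mitochondrial genome, the tested set was the 10085 whose CPM exceeded 2 in 14 or more of the 15 libraries, and TMM factors were set separately for IP and total RPF libraries. Normalized CPM are counts over the scaled library size, and levels per kb use the counted CDS. Log2 ratios of single clones add 0.5 counts, and their counting error is that of the counts only. Tests used edgeR 4.0.16 in R 4.3.3 (quasi-likelihood, Benjamini-Hochberg over all tested transcripts, threshold 0.05): line as the term for total RPFs (9 libraries), fraction for IP against total RPFs of a line (6 libraries), and line, clone within line and fraction within line for the difference of IP effects (12 libraries). These are the study's designs, with edgeR in place of voom because the unit is counts. Fits were tested on simulated data. Intervals are at 95% and normal, from the standard error, and so somewhat narrow for so few libraries. Shared windows were sought over the M21 sequences of the counted transcripts with Python 3.11.15.

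As a check on pairing, the 2 fractions of each clone deviated together from their group means, with r of 0.48 to 0.80 in all 6 clones. Those of total libraries with the same number in 2 lines ran from -0.17 to 0.72.

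All 10 genes are reported, and of the wider list those called and *Eif5a*, *Eif5a2*, *Amd2*, *Myc* and *Mycn*. Genes like *Srm* are the 5 with the highest and 3 with the lowest r among transcripts with at least 20 normalized CPM. *Oat* in total RPFs was added after its values were seen. The genes and lists were chosen with earlier results of these data known. Alternatives were voom with limma 3.58.1, DESeq2 1.42.0, DESeq2's size factors, TMM over all libraries of a fit, weaker or no filters, a replicate block or none, the CDS length trend removed (loess, span 0.5), and each replicate left out.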

Additional observations from a re-analysis of the deposited data

How the results depend on the processing

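Of 735 values recomputed for 54 results, 682 were the same. For a log2 fold change this meant its direction and side of the threshold, and for a count of called genes an unchanged count. *Srm* between total libraries was judged only by a shift smaller than the SD within lines, whatever its sign or side of the threshold. The counts of called genes that moved were those of IP against total RPFs. With the clone as a replicate block 2 genes were called in *Rps27-FLAG* (*Srm* and *Odc1*) and 3 in *Rps27l-FLAG* (*Srm*, *Odc1* and *Sms*), where the unpaired fit called 0. That block called 41.2% and 31.0% of all tested transcripts. The same numbers, 2 and 3, were called with the length trend removed as well. The share of all tested transcripts called there is not given, so these counts cannot be set against a background. Leaving out replicates 1 at a time gave 0 to 2 calls in *Rps27-FLAG*, the 2 without *Rps27-FLAG* replicate 1. In the difference of IP effects 0 genes were called with the clone block or with no replicate block, and in total RPFs 0 of the 7 genes other than *Srm* with or without the batch as a replicate block. *Srm* itself crossed the threshold with that block in *Rps27l-FLAG* against WT (lower, log2 fold change -0.43) and in no other comparison of total RPFs, which is no test, since its level there was used to choose it. *Srm* and *Odc1* kept their direction in IP against total RPFs under each alternative, with ranges over left-out replicates of -0.27 to -0.24 and -0.20 to -0.17 for *Srm* and -0.17 to -0.15 and -0.13 to -0.07 for *Odc1* (*Rps27-FLAG*, *Rps27l-FLAG*).

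Only small log2 fold changes turned sign, and the cause was not tested. *Dohh* for *Rps27-FLAG* against WT was -0.002847 with voom. *Sat1* in the IP of *Rps27-FLAG* was 0.00992 with voom, 0.0183 with DESeq2 and 0.006695 with TMM over all libraries. *Dhps* in the IP of *Rps27l-FLAG* was 0.0299 with DESeq2 and 0.0225 with TMM over all libraries. With the length trend removed, *Dohh* there was -0.0536, and with the block also -0.0688, when *Azin1* was -0.00016. Leaving out single replicates moved the IP values in *Rps27-FLAG* across 0 for *Dohh* (-0.0428 to 0.225), *Oaz2* (-0.39 to 0.00982), *Sat1* (-0.0699 to 0.12) and *Sms* (-0.0220 to 0.20). In *Rps27l-FLAG* it did so for *Azin1* (-0.00585 to 0.0459), *Dhps* (-0.0258 to 0.0324), *Dohh* (-0.0641 to 0.11) and *Oaz2* (-0.26 to 0.0146), and in the difference of IP effects for *Azin1* (-0.0479 to 0.00833), *Dohh* (-0.26 to 0.0393) and *Oaz2* (-0.12 to 0.31). In total RPFs it did so for *Odc1* (-0.00500 to 0.0709), *Dohh* (-0.0718 to 0.14), *Srm* (-0.23 to 0.0389) and *Sat1* (-0.0357 to 0.29) in *Rps27-FLAG* against WT, for *Odc1* (-0.0556 to 0.0236), *Azin1* (-0.0300 to 0.15) and *Sat1* (-0.35 to 0.00608) in *Rps27l-FLAG* against WT, and for *Sms* (-0.0785 to 0.11) between the tagged lines. Depth limits *Sat1* and *Oaz2* most, with 40 and 32 counts in their shallowest libraries.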
